A study of Mus musculus with 8 samples.

Results

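Gpr171, Gpr183, Gpr65, Gpr18, Gpr132, Gpr174, P2ry10 and P2ry14 are 8 G protein-coupled receptor genes of lymphocytes and other blood cells, and they were followed across 8 samples of mouse Th17 cells that expressed either WT-ROR-γt or its K187R form. They were chosen by name with the K187R-against-WT differences in these data already known, and all 8 were among the 22829 genes measured. Members with a mean under 10 normalized counts were to be reported as low only. None fell under that limit, and the lowest mean was that of P2ry14, with 163.

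A G protein-coupled receptor spans the cell membrane, binds a small ligand outside the cell and passes the signal to G proteins inside it. The ligands of these 8 are mostly lipids, nucleotides or protons released by neighbouring cells. Gpr183 is the receptor for oxysterols and guides lymphocytes and dendritic cells within lymphoid tissue. Gpr174 and P2ry10 respond to lysophosphatidylserine, Gpr65 is a proton sensor that raises cyclic AMP, Gpr132 belongs to the same proton-sensing family and also responds to oxidized lipids, and P2ry14 is the receptor for UDP-glucose. Gpr171 has been described as the receptor for a peptide cut from the precursor proSAAS, and Gpr18 as a receptor for lipid mediators such as N-arachidonyl glycine. Regulators of G protein signaling (Rgs proteins) and receptor kinases (Grk proteins) limit how long such receptors signal.

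The cells of both groups were derived from ROR-γt-/- mice, which lack the transcription factor that directs Th17 differentiation. According to the study's methods CD4+ T cells were taken from the spleen with magnetic beads, transduced with lentivirus encoding ROR-γt, and cultured under Th17 polarizing conditions. The WT group (4 samples) received wild-type ROR-γt and the K187R group (4 samples) received ROR-γt with the SUMO acceptor lysine changed to arginine, which cannot be SUMOylated there. The description of the whole series speaks instead of WT and mutant mice, and the sample labels, which give reconstituted cells, were followed here. The comparison thus asks how receptor transcripts differ between Th17 cells whose ROR-γt can and cannot carry SUMO at this lysine. Both groups carried a virus-driven ROR-γt on a knockout background, and neither untransduced nor normal Th17 cells were measured with them. The ages of the mice and the number of animals or cultures behind the 4 samples of a group are not given in the sources used here, so the spread between samples may be partly technical.

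The samples had 52456804 to 74676721 reads on genes, and 3 reads corresponded to 2.54 to 3.56 normalized counts (reads divided by a size factor per sample). Clustering over 16879 other genes gave 3 sets of samples that did not follow the form of ROR-γt. WT replicates 1 and 3 and K187R replicate 1 form set 1. WT replicate 2 and K187R replicates 2 and 3 form set 2. The remaining samples, both numbered 4, form set 3. Sets 1 and 2 hold unequal numbers of WT and K187R samples, so differences between sets also enter those between the groups. Xist, the transcript of the inactive X chromosome, was at 13564 to 17373 normalized counts in the samples of set 2 and at 3.56 to 23.7 in the other 5. The T cell markers Cd3d, Cd3e, Cd3g, Cd4 and Trac summed to 86936 to 97989 in WT and 88873 to 103882 in K187R.

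Of the 8 genes, 6 lie in pairs along the genome (GRCm38, GENCODE M21). Gpr171 (chromosome 3, 59096448 to 59101821) and P2ry14 (chromosome 3, 59113855 to 59153618) are 12033 bases apart on the minus strand, both inside the gene Med12l, which runs on the plus strand and shares no exon base with either. Gpr18 (chromosome 14, 121911253 to 121915781) and Gpr183 (chromosome 14, 121952551 to 121965195) are 36.8 kb apart on the minus strand, both inside Ubac2 on the plus strand, again with no shared exon base. On the X chromosome P2ry10 (107088492 to 107104974) and Gpr174 (107255878 to 107296769) are 150.9 kb apart on the plus strand, with the related receptor gene P2ry10b between them. Gpr65 (chromosome 12, 98268635 to 98276644, plus strand) and Gpr132 (chromosome 12, 112850873 to 112868228, minus strand) are farther apart on one chromosome. For Gpr65, 24.7% of the exon bases also lie in exons of the antisense gene Gm47566. Since use of strand in the counting is not stated, it is not known how reads of the 2 genes were assigned there. The values of Gpr65 below carry this limit.

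ROR-γt, like other ROR proteins, binds DNA at the half-site AGGTCA preceded by a stretch rich in A and T, so the 250 bases before the RefSeq starts of these genes (GRCm38.p6) were searched on both strands for AGGTCA. Such windows were at hand for 7 of the 8 genes, 11 windows in all, and not for Gpr171. RefSeq starts can differ from the gene ends given above, and the windows of Gpr132, Gpr174, the second start of P2ry10 and 3 of the 4 starts of P2ry14 lie inside the GENCODE gene. The half-site was found in 3 of the 11 windows, for 1 of the 2 starts of P2ry10, for Gpr132 and for 1 of the 4 starts of P2ry14, and in 14.02% of all 32851 windows of the same length. The windows of 3 genes are shown 5′ to 3′ on the strand of the gene, because they are those of a receptor gene with lower values in K187R (P2ry10, the start with the half-site), of a proton sensor with the half-site (Gpr132) and of a gene with a higher mean in K187R and no half-site (Gpr183). Capitals mark the half-site, read as TGACCT on the opposite strand. They are chrX:107088242-107088491 (plus strand), chr12:112860917-112861166 (minus strand) and chr14:121965194-121965443 (minus strand), in this order.
P2ry10: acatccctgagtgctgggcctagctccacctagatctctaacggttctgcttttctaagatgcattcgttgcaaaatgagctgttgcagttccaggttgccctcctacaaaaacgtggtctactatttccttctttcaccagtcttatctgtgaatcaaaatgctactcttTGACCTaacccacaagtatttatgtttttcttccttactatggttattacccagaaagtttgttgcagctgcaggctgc
Gpr132: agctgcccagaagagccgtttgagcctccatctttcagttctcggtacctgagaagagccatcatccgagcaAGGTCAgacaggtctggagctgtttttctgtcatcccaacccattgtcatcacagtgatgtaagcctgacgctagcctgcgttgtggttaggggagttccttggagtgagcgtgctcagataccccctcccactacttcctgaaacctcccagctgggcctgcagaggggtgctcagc
Gpr183: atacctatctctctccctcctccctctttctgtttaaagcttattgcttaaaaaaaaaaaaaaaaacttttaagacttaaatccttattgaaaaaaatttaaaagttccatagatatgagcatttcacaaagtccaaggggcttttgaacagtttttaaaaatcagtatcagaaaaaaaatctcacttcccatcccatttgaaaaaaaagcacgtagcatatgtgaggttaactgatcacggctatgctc
The half-site began 79 bases before the start in P2ry10, on the opposite strand, and 178 bases before it in Gpr132. In P2ry14, which had a higher mean in K187R, it began 75 bases before 1 of the starts, and that window is not shown. The stretch rich in A and T was not part of the search. A match is a run of letters and not a measured binding site, and binding of ROR-γt was not measured in these samples.

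All but P2ry14 were expressed above the median gene. To compare genes of different length, normalized counts were divided by the kilobases of exon. P2ry10 was highest, with a mean over the 8 samples of 3080 normalized counts per kilobase (range 1757 to 5163), followed by Gpr171 with 2457 (1925 to 3042). Gpr65 had 1827 (1506 to 2077) and Gpr18 had 1808 (1576 to 2111). Gpr174 had 1388 (1015 to 1904), Gpr132 had 1126 (862 to 1454) and Gpr183 had 397 (221 to 655). P2ry14 had 14.8 (5.80 to 21.3), over 11.059 kb of exon, beside 1.498 to 5.402 kb for the other genes. Its coding sequence has 1041 bases, so its level, its place among all genes and its distance from Gpr183 depend on the length used. Per kilobase of coding sequence P2ry14 was still lowest. The median of 16958 genes was 253 normalized counts per kilobase, so 94.7% of genes were below P2ry10, 93.1% below Gpr171 and 59.3% below Gpr183, and 13.5% below P2ry14.

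Neighbours in this order were compared within each sample on the scale log2(normalized count per kilobase + 1). An exact two-sided sign-flip test over the 8 samples was used, with Benjamini-Hochberg adjustment over the 7 pairs. It takes the samples as independent, while they fall into 3 sets and the number of cultures behind them is not given. Gpr171 exceeded Gpr65 in 8 of 8 samples, by 0.41 ± 0.244 (SD; exact p = 0.00781, adjusted p = 0.0182). Gpr18 exceeded Gpr174 in 7 of 8, by 0.41 ± 0.340 (exact p = 0.0234, adjusted p = 0.0410). Gpr132 exceeded Gpr183 in 8 of 8, by 1.62 ± 0.789, and Gpr183 exceeded P2ry14 in 8 of 8, by 4.65 ± 0.574 (for each exact p = 0.00781, adjusted p = 0.0182). The other 3 pairs did not differ beyond their spread. These were P2ry10 and Gpr171 (0.24 ± 0.378, higher in 5 of 8, adjusted p = 0.146 from the exact test), Gpr65 and Gpr18 (0.02 ± 0.138, higher in 6 of 8, adjusted p = 0.719 from the exact test), and Gpr174 and Gpr132 (0.29 ± 0.472, higher in 6 of 8, adjusted p = 0.146 from the exact test). The difference between Gpr18 and Gpr174 no longer passed when lengths of the longest transcript were used, or when WT replicate 3 or 4 or any K187R sample was left out. Without WT replicate 1 Gpr18 stood above Gpr65 and 3 pairs passed. Per kilobase of coding sequence Gpr174 moved to the second place, above Gpr18, and the pair of Gpr65 and Gpr18 passed. The order of these genes thus depends on the length used.

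**Figure D1:**
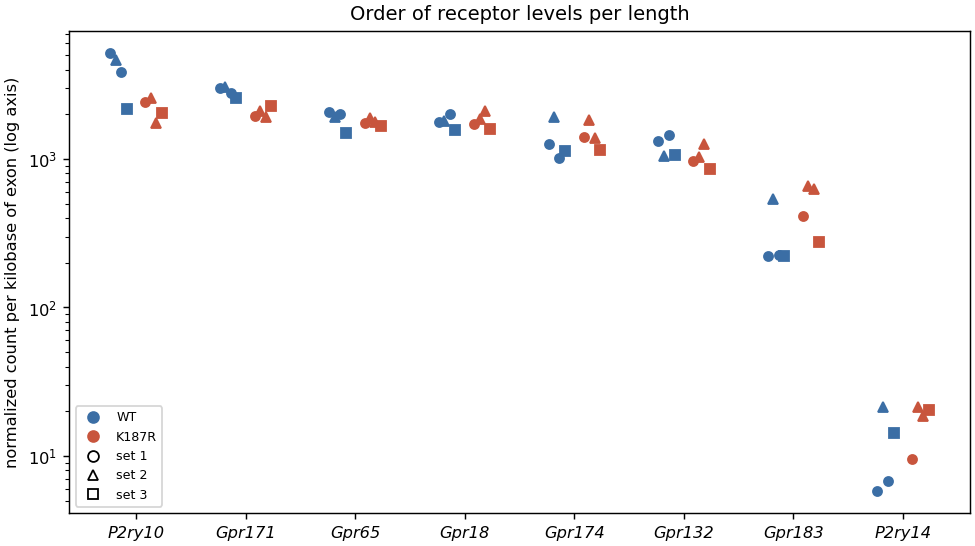
Level of each receptor gene in each of the 8 samples, in normalized counts per kilobase of exon on a log axis, with genes ordered by their mean. Blue points are WT and red points K187R, and the symbols give the set of samples. P2ry10, Gpr171, Gpr65, Gpr18, Gpr174 and Gpr132 have means between 1126 and 3080, Gpr183 has 397 and P2ry14 has 14.8.

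Between K187R and WT, the 8 receptors did not move as a group. The estimates were higher in K187R for 4 genes and lower for 4, and the median log2 difference was -0.03, beside -0.01 over the 16982 genes whose mean was at least 10. The median of the absolute log2 difference was 0.36 for the 8 genes and 0.12 for all genes. This larger size is no finding about the receptors, since they were picked with these differences known. A log2 difference here is K187R minus WT, between group means of log2(normalized count + 1), and its standard error comes from limma. Because the 8 genes were chosen with this comparison known, their differences are given as a description without a test. Over all genes limma called 0 of 16982 at an adjusted p-value under 0.05 (0%), with 746 at an unadjusted p-value under 0.05, and edgeR's quasi-likelihood test called 0. DESeq2 called 31 of the 13682 genes to which it gave an adjusted p-value, 0.227%, and Gpr171 was the only one of the 8 receptors among them. Every K187R sample lay below every WT sample for 0.989% of all genes and for 1 of the 8 receptors, Gpr171. Every K187R sample lay above every WT sample for 1.47% of all genes and for 0 of the 8. Nothing is read from these counts, since the genes were picked on the same comparison.

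**Figure D2:**
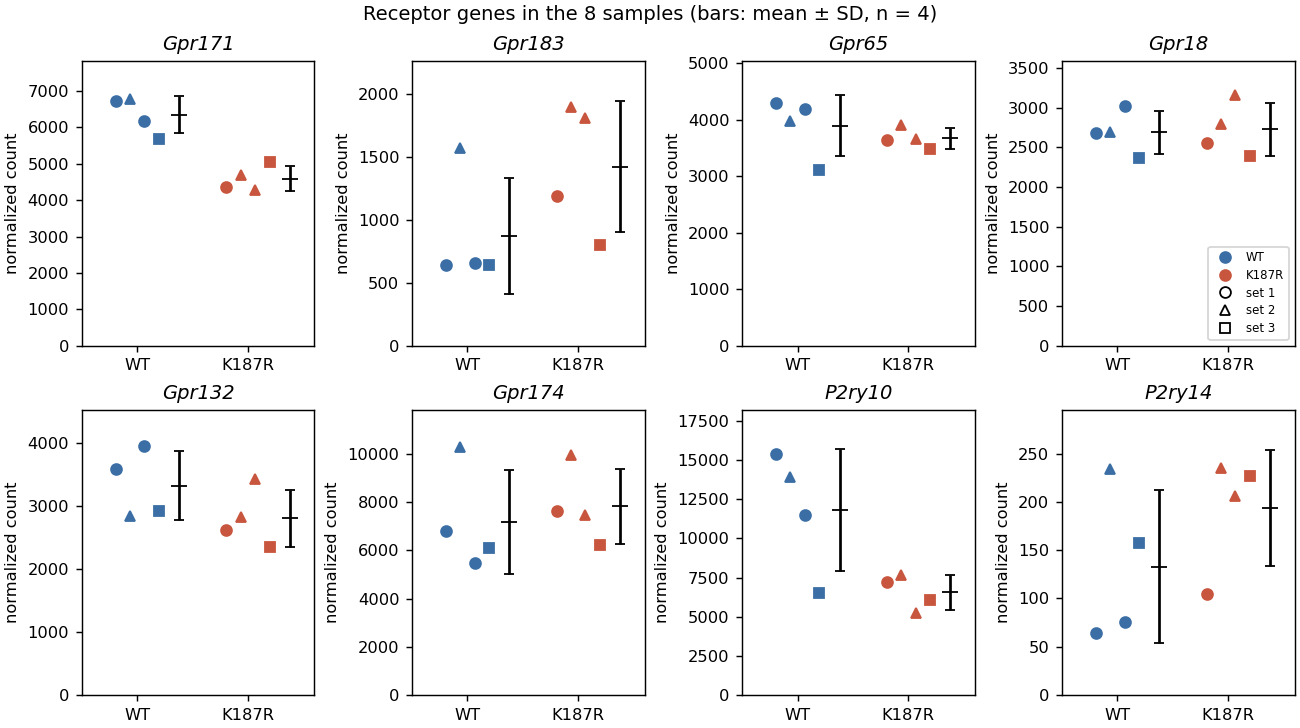
Normalized counts of the 8 receptor genes in the 4 WT (blue) and 4 K187R (red) samples, with symbols for the set of samples and black bars for the mean ± SD of each group. Gpr171 is the gene whose groups do not overlap, P2ry10 overlaps through WT replicate 4, and in Gpr183 and P2ry14 WT replicate 2 lies among the K187R samples.

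Gpr171, the receptor described for a proSAAS peptide, was lower in K187R. The WT samples had 6723, 6768, 6186 and 5688 normalized counts in replicates 1 to 4, and the K187R samples had 4355, 4694, 4283 and 5045. The lowest WT sample (replicate 4) and the highest K187R sample (replicate 4) were closest, and the groups did not overlap. Means were 6342 ± 509 and 4594 ± 350 (SD, n = 4), a log2 difference of -0.46 (standard error 0.084) and a fold of 0.725. Within sets 1, 2 and 3 the log2 differences were -0.57, -0.59 and -0.17. Ordered by the unadjusted p-value of limma, Gpr171 ranked 10 of 16982. Of its variance, 84.8% lay between the groups and 5.61% between the sets, where the medians over all genes were 9.11% and 51.6%. Gpr171 was picked with this comparison known, so its rank and its share between the groups are description and not support. The same holds for the ranks of P2ry10 and Gpr183 given below.

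P2ry10, one of the lysophosphatidylserine receptors, also had lower values in K187R, but not in every sample. WT replicates 1 to 3 had 15395, 13906 and 11475 normalized counts, and WT replicate 4 had 6508. The K187R samples had 7237, 7667, 5238 and 6053. The first 3 WT samples were above all K187R samples, and WT replicate 4 lay among them. Means were 11821 ± 3893 and 6549 ± 1109 (SD, n = 4), a log2 difference of -0.80 (standard error 0.249) and a fold of 0.576. Sets 1, 2 and 3 gave differences of -0.88, -1.13 and -0.10. Leaving 1 sample out gave values from -0.64 (without WT replicate 1) to -1.06 (without WT replicate 4), and a term for the set gave -0.76. P2ry10 ranked 135 of 16982 by unadjusted p-value.

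Gpr174, the other lysophosphatidylserine receptor of this group, did not share this pattern although it lies on the same stretch of the X chromosome. Its values were 6812, 10287, 5481 and 6114 normalized counts in WT and 7646, 9938, 7482 and 6210 in K187R. WT replicate 2 and K187R replicate 2 were highest, and the groups overlapped throughout. Means were 7173 ± 2146 and 7819 ± 1552 (SD, n = 4), a log2 difference of 0.15 (standard error 0.201), with 0.32, -0.25 and 0.02 in sets 1, 2 and 3. With 1 sample left out it ranged from 0.02 (without K187R replicate 2) to 0.33 (without WT replicate 2), and it was 0.03 with a term for the set. P2ry10b, the paralogue between P2ry10 and Gpr174 (listed as A630033H20Rik), had 1399 ± 407 in WT and 1370 ± 320 in K187R (SD, n = 4), a log2 difference of -0.01 (standard error 0.228, adjusted p = 0.995 from limma). All 3 genes are X-linked, and the samples with high Xist were those of set 2; P2ry10 averaged 11369, 8937 and 6280 normalized counts in sets 1, 2 and 3, and Gpr174 averaged 6646, 9236 and 6162. The part of Xist status in these values was not tested.

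Gpr183, the oxysterol receptor, was higher on average in K187R, but its values followed the sets of samples. WT replicates 1, 3 and 4 had 637, 656 and 638 normalized counts, and WT replicate 2 had 1564. The K187R samples had 1190, 1892, 1802 and 802. WT replicate 2 lay above K187R replicates 1 and 4, so the groups overlapped, and the other 3 WT samples lay below all K187R samples. Means were 874 ± 460 and 1421 ± 518 (SD, n = 4), a log2 difference of 0.74 (standard error 0.352) and a fold of 1.67. With 1 sample left out the difference ranged from 0.58 (without K187R replicate 2) to 1.06 (without WT replicate 2). With a term for the set the difference was 0.50 (standard error 0.120), again a description without a test. Within sets 1, 2 and 3 it was 0.88, 0.24 and 0.33, positive each time but smaller in sets 2 and 3. Set means were 828, 1753 and 720 normalized counts, and the sets held 81.7% of the variance against 32.9% for the groups. Gpr183 ranked 974 of 16982.

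The 2 proton-sensing receptors had lower mean values in K187R, with overlapping groups. Gpr65 had 4297, 3978, 4186 and 3116 normalized counts in WT and 3631, 3907, 3651 and 3477 in K187R. WT replicate 4 was lowest of the 8, and the other WT samples were highest. Means were 3894 ± 535 and 3666 ± 178 (SD, n = 4), a log2 difference of -0.08 (standard error 0.105), which with 1 sample left out ranged from -0.18 (without WT replicate 4) to -0.03 (without WT replicate 1). Gpr132 had 3585, 2831, 3949 and 2907 in WT and 2616, 2812, 3416 and 2339 in K187R. WT replicates 1 and 3 were highest, and K187R replicate 3 lay above the remaining WT samples. Means were 3318 ± 540 and 2796 ± 457 (SD, n = 4), a log2 difference of -0.25 (standard error 0.143). Within sets 1, 2 and 3 it was -0.52, 0.13 and -0.31 for Gpr132, and -0.22, -0.07 and 0.16 for Gpr65, so that neither kept 1 direction. The difference of Gpr132 was -0.48 with the samples of set 2 left aside, and with 1 sample left out it ranged from -0.35 (without K187R replicate 3) to -0.16 (without WT replicate 3).

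Gpr18 differed least. Its values were 2677, 2694, 3026 and 2361 normalized counts in WT and 2558, 2798, 3162 and 2393 in K187R. In both groups replicate 3 was highest and replicate 4 lowest. Means were 2689 ± 272 and 2728 ± 334 (SD, n = 4), a log2 difference of 0.02 (standard error 0.108). Gpr183, its neighbour inside Ubac2, thus differed by 0.74 while Gpr18 differed by 0.02, and Ubac2 itself had 3781 ± 279 in WT and 3482 ± 249 in K187R (SD, n = 4), a log2 difference of -0.12 (adjusted p = 0.921 from limma).

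P2ry14, the UDP-glucose receptor, had the lowest counts of the 8 receptors. WT samples had 64.2, 235, 75.3 and 158 normalized counts, from 54 to 244 reads, and K187R samples had 105, 235, 206 and 227, from 93 to 255 reads. WT replicates 1 and 3 and K187R replicate 1, which form set 1, were the 3 lowest, and WT replicate 2 was as high as any K187R sample to within 1 normalized count. Means were 133 ± 79.6 and 193 ± 60.1 (SD, n = 4), a log2 difference of 0.67 (standard error 0.430), with 0.59, -0.09 and 0.52 in sets 1, 2 and 3. Without WT replicate 2 it was 1.01, without WT replicate 1 it was 0.39, and with a term for the set it was 0.32. The sets held 89.8% of the variance of P2ry14, the highest share of the 8 genes.

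**Figure D3:**
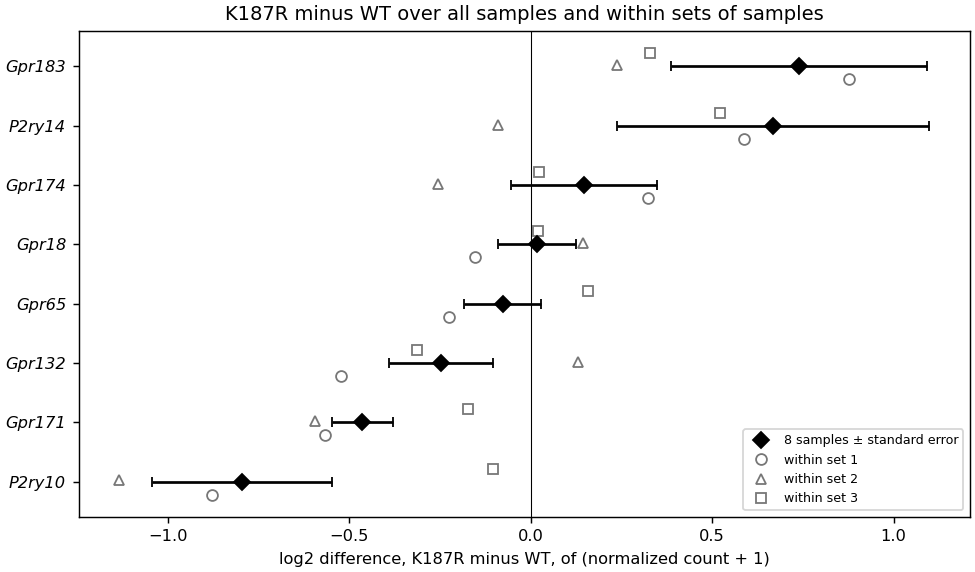
Log2 difference of each receptor gene, K187R minus WT, over the 8 samples (black diamonds, bars are the standard error from limma) and within each set of samples (open symbols, no error since a set holds 1 or 2 samples of a group). Gpr171, P2ry10 and Gpr183, picked with this comparison known, keep their sign in all 3 sets, and Gpr171 and P2ry10 are nearest 0 in set 3.

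Set by set, Gpr171, P2ry10 and Gpr183 kept the sign of their difference in all 3 sets, and the other 5 genes did not. Each set holds at most 2 samples of a group, so these are values without an error. They are parts of the comparison on which the genes were picked, so a kept sign is description and not support. The share of all genes that keep their sign is not given here. In set 3, the samples numbered 4, Gpr171 and P2ry10 differed least, by -0.17 and -0.10.

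**Figure D4:**
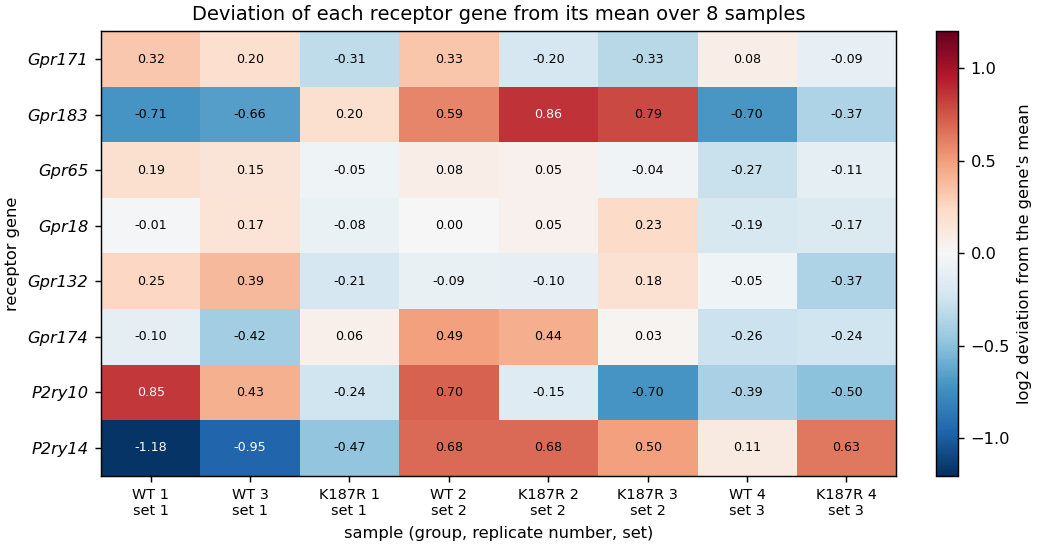
Log2 deviation of each receptor gene from its own mean over the 8 samples, with samples ordered by set and then by group. In Gpr183 and P2ry14 the samples of set 2 are all above the mean, and in Gpr171 the WT samples are above it and the K187R samples below it in every set.

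Markers of other blood cells were measured in the same RNA, and the values of several receptors went with some of them. In bulk RNA, fewer cells of a type and less RNA per cell cannot be told apart. The 4 dendritic cell markers (Flt3, Itgax, Xcr1, Zbtb46) summed to 852 to 1745 normalized counts in WT and 1183 to 2556 in K187R, 3 of the 4 had a mean of at least 10, Xcr1 was between 0.846 and 5.77, and none was at 0 in any sample. Summed by sample they had 852, 1745, 863 and 952 in WT and 1183, 2311, 2556 and 1183 in K187R, so the samples with the 3 highest sums were also the 3 highest for Gpr183. The 5 macrophage and monocyte markers (Csf1r, Adgre1, Lyz2, Cd14, Cd68) were all above 10 on average and summed to 20438 to 60538 in WT and 34754 to 63516 in K187R, mostly Lyz2. Samples of set 1 had the 3 lowest sums, and the 3 lowest values of P2ry14. The samples numbered 4 had the 2 highest sums, 60538 in WT and 63516 in K187R, and the 2 lowest values of Gpr65. P2ry10 was lowest of the WT group in WT replicate 4, but lowest of all 8 in K187R replicate 3. Gpr132 was lowest of all 8 in K187R replicate 4, but lowest of the WT group in WT replicate 2. Gpr18, like Gpr65, had its 2 lowest values in the samples numbered 4. The markers did not move together there. Lyz2 (54522 in WT, 57778 in K187R) and Cd68 (2308 and 2229) were highest in the samples numbered 4. Csf1r (2598 and 2423) and Cd14 (448 and 407) were below all samples of set 2, and Adgre1 (662 and 679) was not highest. Neutrophil markers (S100a8, S100a9, Csf3r) summed to 2924 to 40837 in WT and 9607 to 28696 in K187R, with 3466, 2924 and 9607 in the samples of set 1 (WT replicates 1 and 3, K187R replicate 1) and 19066 to 40837 in the other 5. The 3 lowest sums were thus again those of the samples lowest for P2ry14, and WT replicate 2 had the highest. For Gpr174, WT replicate 2 and K187R replicate 2, the 2 highest samples, were also among the 3 highest dendritic cell sums. The part of these cells in the values of Gpr183, P2ry14, Gpr65, Gpr18, P2ry10, Gpr132 and Gpr174 was not tested.

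Other marker lists were measured in the same way. B cell markers (5 of 5 above a mean of 10) summed to 301 to 1220 in WT and 357 to 1596 in K187R, with both samples numbered 4 lowest. Gpr65 and Gpr18 were lowest in the same samples, and the part of B cells in their values was not tested. CD8 T cell markers (Cd8a, Cd8b1) summed to 403 to 1025 in WT and 387 to 1141 in K187R, with both samples numbered 4 highest. NK cell markers (Ncr1, Klrb1c, Eomes) summed to 53.5 to 384 in WT and 40.7 to 435 in K187R, with 2 of the 3 above a mean of 10 and Ncr1 at 0 in WT replicates 1 and 4 and K187R replicate 4. Their sums were 384, 370 and 435 in the samples of set 2 (WT replicate 2, K187R replicates 2 and 3) and 40.7 to 64.0 in the other 5, so these markers, mostly Eomes, were highest in the 3 samples that were highest for Gpr183, and their part in its values was not tested. Erythroid markers summed to 1.19 to 45.3 and 3.39 to 61.3, all 3 with a mean under 10.

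**Figure D5:**
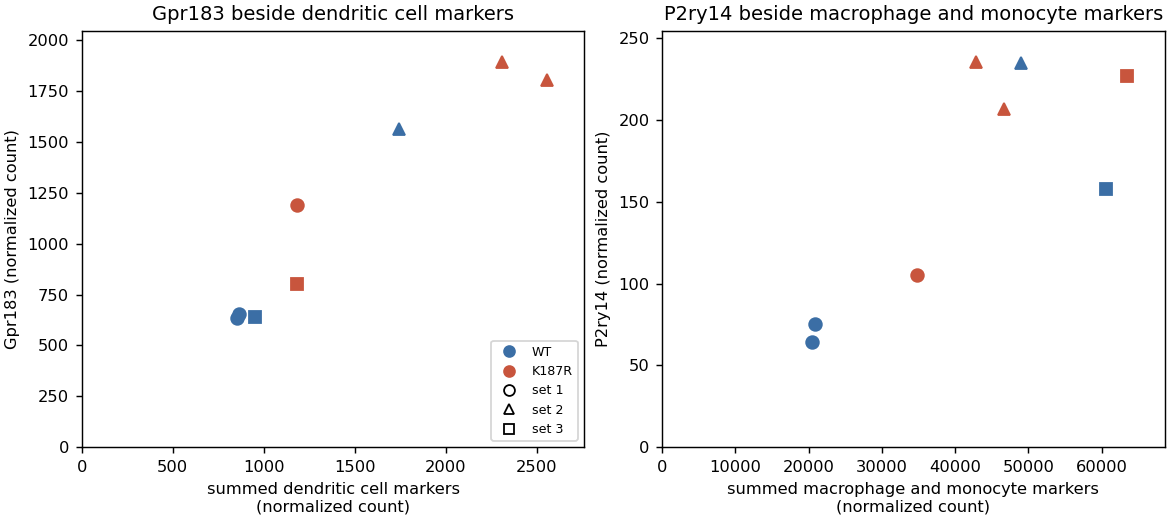
Left, normalized counts of Gpr183 against the summed normalized counts of 4 dendritic cell markers. Right, P2ry14 against the sum of 5 macrophage and monocyte markers. Each point is 1 of the 8 samples, with color for the group and symbol for the set; the 3 samples of set 2 are highest for Gpr183 and for the dendritic cell sum, and the 3 samples of set 1 are lowest for P2ry14 and for the macrophage and monocyte sum.

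Limma called 0 of all 16982 genes (0%), so a count of 0 in a list is no result about that list. Of all 16982 genes, 746 had an unadjusted p-value under 0.05. Both counts stand beside each list below. The first list is of genes that make or remove the ligands of these receptors. Of 10 listed, 9 were in the table and 7 had a mean of at least 10, and limma called 0 of the 7 in either direction, with 1 at an unadjusted p-value under 0.05 and a median log2 difference of 0.28. Ch25h and Cyp7b1, the hydroxylases that make the Gpr183 ligand, were at 0.871 to 10.5 and 0 to 15.2 normalized counts and too low to test. Cyp27a1, which hydroxylates sterol side chains, had 7.57 ± 3.85 in WT and 13.96 ± 1.78 in K187R (SD, n = 4), a log2 difference of 0.91 (standard error 0.371, adjusted p = 0.921 from limma). Hsd3b7, which inactivates the Gpr183 ligand, had 52.0 ± 13.7 and 65.9 ± 13.1 (SD, n = 4; log2 difference 0.34, adjusted p = 0.921 from limma). For lysophosphatidylserine, the synthesizing Abhd16a and the degrading Abhd12 had log2 differences of -0.02 and -0.00, and the phospholipase Pla1a had 0.45 (adjusted p = 0.986, 0.999 and 0.924 from limma). Ugp2, which makes UDP-glucose, had a log2 difference of -0.06, and Pcsk1, a convertase that cuts proSAAS, had 0.28 (adjusted p = 0.959 and 0.963 from limma). Pcsk1n, which encodes proSAAS, was not analysed here.

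Another list held the G proteins, receptor kinases, arrestins and Rgs proteins that act below such receptors. Limma called 0 of 31, as of all genes, with 2 at an unadjusted p-value under 0.05 and a median log2 difference of 0.07. The 3 with the smallest p-values were Rgs2, Grk6 and Rgs14. Rgs2, which ends signals of Gq-coupled receptors, had 1790, 1746, 1769 and 1447 normalized counts in WT and 1100, 1100, 1181 and 1449 in K187R. The groups overlapped through the samples numbered 4, which were level. Its log2 difference was -0.49 (standard error 0.116, adjusted p = 0.921 from limma). Grk6, a receptor kinase, differed by 0.22 (standard error 0.0907) and Rgs14 by 0.31 (standard error 0.146), each with an adjusted p = 0.921 from limma.

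Among 25 other tested receptors of the same ligand classes limma called 0, as of all genes. Of the 25, 1 had an unadjusted p-value under 0.05, and their median log2 difference was 0.20. Lpar5, a lysophosphatidic acid receptor, had 251 ± 38.5 in WT and 334 ± 53.6 in K187R (SD, n = 4), a log2 difference of 0.41 (standard error 0.164, adjusted p = 0.921 from limma), and its groups did not overlap. S1pr1, the sphingosine 1-phosphate receptor for exit from lymphoid tissue, differed by 0.18 (standard error 0.0815) and F2rl1, a protease-activated receptor, by 0.32 (standard error 0.146), both with an adjusted p = 0.921 from limma. Over all lists with each gene counted once, 0 of 65 passed, 4 had an unadjusted p-value under 0.05 and 1 had groups that did not overlap, beside the shares of all genes given above. The lists were drawn up with results of these data known.

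Of 5 tested genes that lie around the receptors, limma called 0, as of all genes, and 0 had an unadjusted p-value under 0.05. P2ry12 and P2ry13, purine receptors of platelets and myeloid cells beside P2ry14, had log2 differences of 0.63 (standard error 0.415) and 0.55 (standard error 0.379), and Med12l had 0.14 (standard error 0.240), with adjusted p-values of 0.921, 0.921 and 0.947 from limma. P2ry13 had 120, 280, 97.3 and 157 normalized counts in WT and 131, 305, 325.5 and 181 in K187R, highest in the samples of set 2. Med12l had 106, 217, 112 and 143 in WT and 124, 159, 156 and 176 in K187R, lowest, like P2ry14, in the 3 samples of set 1. For Gpr171, which lies inside Med12l as well, the sets held 5.61% of the variance.

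The genes most like each receptor across the 8 samples were taken by Pearson's r of the log2 values over 13366 genes whose mean was at least 50. The 8 samples fall into 3 sets and many genes were searched, so r is given as a description without a test. Gpr171 was most like Bbs7 (r = 0.98), Npepps (0.96) and Fbxo18 (0.95). P2ry10 was most like Wdr47 (0.99), Akirin1 (0.99) and Ddx50 (0.98). Gpr183 was most like the receptor kinase gene Grk3 and the interferon-responsive genes Epsti1 and Ifit1bl2 (0.99 each). Grk3 had 316, 772, 305 and 322 normalized counts in WT and 596.5, 1039, 1040 and 343 in K187R, highest in set 2 like Gpr183, with a log2 difference of 0.80 (standard error 0.409, adjusted p = 0.921 from limma). Gpr174 was most like Gm45871 (0.98), March1 (0.98) and Stap1 (0.97), Gpr65 like Ube2n, Spidr and Rfwd3 (0.99, 0.99 and 0.98), Gpr18 like Izumo1r, Phf2 and D430020J02Rik (0.99, 0.98 and 0.97), and Gpr132 like Chtf18, Stk35 and Gm10282 (0.98, 0.97 and 0.97). P2ry14 was most like Tfec, Hebp1 and Hsd17b11 (0.99 each).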

How the data were processed

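RNA seq was performed by the authors on poly-A enriched libraries of 8 samples, 4 per group, grouped by the labels. Reads were trimmed with Cutadapt, aligned to GRCm38 with HISAT2 and counted per gene of GENCODE M15 with featureCounts; each deposited value is a signal, the reads of a gene over the DESeq2 size factor of its sample (normalized count). All of them (100%) were whole reads to within 0.01 read, so reads were recovered. Depth was 52456804 to 74676721 reads per sample. Printed errors are SDs between samples or limma standard errors. Here log2(normalized count + 1) was fitted with limma 3.58.1 (R 4.3.3; lmFit, eBayes with trend) over 16982 genes with a mean of at least 10, with Benjamini-Hochberg adjustment at 0.05. edgeR 4.0.16 and DESeq2 1.42.0 on recovered reads, pseudocounts of 0.5 and 5, other filters and scalings, the replicate number, the sample set and each sample left out were alternatives; 2 more were added after seeing the data. The methods were tested on simulated data. The simulated samples were independent and held no sets, so that test does not cover the sets of samples seen here. Coordinates and exon lengths come from GENCODE M21 (22784 of 22829 identifiers), used in place of M15.

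The members and lists were chosen with earlier results of these data known. Genes named are the 8 receptors, the ligand enzymes and genomic neighbours, the 3 genes of each other list with the smallest p-value, and the 3 genes most like each receptor. The check of the targeted gene and the sum of Th17 markers are not reported here.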

Additional observations from a re-analysis of the deposited data

Results flagged for a closer look

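Gpr183 in WT replicate 2, with 1564 normalized counts, lay far from the other 3 WT samples, which were between 637 and 656; its gap to the nearest of them was 0.979 of the range of the group, above Dixon's critical value for 4 samples. Of 16 groups examined (8 genes in 2 groups) this was the only 1, where chance flags about 1 in 20 groups. The same sample belongs to the set with K187R replicates 2 and 3, where Gpr183 was 1892 and 1802.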

How the results depend on the processing

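The count of genes called between K187R and WT was 0 in limma and stayed 0 in edgeR and under the other pseudocounts, filters and scalings, while DESeq2 called 31 (17 higher, 14 lower), a term for the sample set 1, and the added setting with the samples numbered 4 left aside 4. Leaving out 1 sample at a time gave 0 to 4, and the 4 (1 higher, 3 lower) came without WT replicate 4. Gpr171 was called by DESeq2 and in no other setting, and none of the other 7 receptors was called in any. For these counts the cause was not tested. With the replicate number as a replicate block 0 genes were called, and 2046 in place of 746 had an unadjusted p-value under 0.05. The numbers were not treated as pairs, since the deviations of same-numbered samples correlated with r of 0.59, 0.66, -0.09 and 0.63 for numbers 1 to 4, and WT replicate 3 was most like K187R replicate 1. No gene of the pathway lists was called in any setting, beside 0 to 31 of all genes. All 20 alternatives kept the direction of 7 receptors. For Gpr18 the log2 difference ranged from -0.056 to 0.078 with 1 sample left out (-0.043 without WT replicate 4, -0.056 without K187R replicate 3) and was -0.11 without set 2. Of the neighbouring levels, 3 or 4 pairs differed in each setting, though not always the same pairs. P2ry14, with 54 to 255 reads, had the largest limma standard error of the receptors, 0.430 with 4 samples per group. With a term for the sample set its standard error was 0.16, below the 0.19 of P2ry10. The part of the number of reads in this error was not tested.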
